A study of Homo sapiens with 21 samples.

Results

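The 10 genes described here make pigment or build and move the melanosome, the organelle in which melanin is made, and they were chosen by name from 19974 protein-coding genes. They are TYR, TYRP1, DCT, PMEL, MLANA, OCA2, SLC45A2, SLC24A5, RAB38 and RAB27A. For each gene, every deposited region whose midpoint lay in the gene body or within 50 kb of it was taken, which gave windows of 2.21 Mb in all. These windows held from 28 regions of the HOXD13-HA list, which has 29176, to 197 of the 501mel K27ac list, which has 55889. Across the 15 lists, 35 regions had their midpoint between 45 and 50 kb from a gene and 60 had it between 50 and 55 kb, just outside the limit.

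The study profiled chromatin in 4 human melanoma lines, named 501mel, A375, SKMEL-5 and SKMEL-147, in relation to silencing or overexpression of the homeobox factor HOXD13. Of 21 samples, 15 were used: 4 of ATAC-seq, in which a transposase marks accessible DNA, 8 of K27ac, the acetylation of histone H3 at lysine 27 carried by active regulatory DNA, 2 of the insulator protein CTCF, and 1 of an HA tag. Another 6 samples, 5 with IgG and 1 with HA in A375-GFP cells, are not analysed here. ATAC and K27ac came from 501mel, SKMEL-5, SKMEL-147 and A375-GFP, the A375 line carrying a GFP construct by its name, and CTCF came from 501mel and SKMEL-5. A375-HOXD13-HA is named for tagged HOXD13, and A375-shH2, A375-shH3 and A375-shNTC are named for short hairpin RNAs. The labels give the hairpins no target, and shNTC was read as the non-targeting control. Cells were cultured for 72 h, some with 1 µg/ml doxycycline to induce the constructs, and the labels do not tie doxycycline, ChIP-seq or CUT&Tag to single samples. The 501mel ATAC regions carry siNTC in their names, and the label of that sample is silent on it. Every group was 1 library except shNTC with 2, so differences between groups have no replicate check and no test, and counts are set beside the share of all genes counted the same way. The lists give no read counts, so depth is unknown, and they held 29176 to 163102 regions each. Folds are the authors' enrichment at the summit. Those of different lists are given side by side and not compared.

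In melanocytes, tyrosinase (TYR) oxidises tyrosine, DCT (dopachrome tautomerase) rearranges an intermediate, and TYRP1, a related protein, acts later in the same route to brown-black eumelanin and helps keep tyrosinase stable. PMEL forms the fibrils on which pigment is laid down, MLANA is a small melanosomal protein that helps PMEL mature, and OCA2, SLC45A2 and SLC24A5 are membrane transporters that set melanosome ions and pH. RAB38 sorts the enzymes to the maturing melanosome, and RAB27A ties the finished organelle to actin motors. The lineage factor MITF switches on many of these genes through E-box sequences such as TCATGTG near their starts, usually with SOX10. 501mel and SKMEL-5 are known as lines with an active pigment programme, and SKMEL-147 and A375 as lines with little of it.

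The K27ac lists were checked against markers of these states. Of the 5 melanocytic factors MITF, SOX10, TFAP2A, PAX3 and LEF1, a K27ac region lay within 1 kb of the start of 5 in 501mel, of 5 in SKMEL-5, of 3 in SKMEL-147 and of 5 in A375-GFP. The shares of all genes were 22.3%, 46.7%, 20.3% and 53% in that order. These factors thus did not set A375-GFP apart from 501mel and SKMEL-5. Of the 5 markers of undifferentiated melanoma (AXL, EGFR, NGFR, WNT5A and TNC) the counts were 0, 1, 4 and 4 in the same order. Of 4 markers each, keratinocyte genes had 0, 0, 0 and 1 acetylated starts, fibroblast genes 0, 2, 1 and 0, and T cell genes 0, 0, 0 and 1.

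Promoter sequences are shown for members whose starts were open in both 501mel and SKMEL-5, 4 that hold TCATGTG and MLANA, which does not, for contrast. They come from the RefSeq table for GRCh38.p14 and run from 250 bases before the start to 50 after it, 5′ to 3′ along the gene. Capitals mark TCATGTG, or CACATGA where it lies on the other strand.

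TYR promoter, chr11:89177625-89177924, plus strand: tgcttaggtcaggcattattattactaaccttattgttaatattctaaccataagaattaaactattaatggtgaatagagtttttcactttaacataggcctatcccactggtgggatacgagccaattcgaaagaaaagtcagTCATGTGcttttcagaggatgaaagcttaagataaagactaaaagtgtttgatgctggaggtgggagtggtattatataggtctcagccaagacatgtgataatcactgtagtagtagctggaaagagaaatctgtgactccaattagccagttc

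TYRP1 promoter, chr9:12693135-12693434, plus strand: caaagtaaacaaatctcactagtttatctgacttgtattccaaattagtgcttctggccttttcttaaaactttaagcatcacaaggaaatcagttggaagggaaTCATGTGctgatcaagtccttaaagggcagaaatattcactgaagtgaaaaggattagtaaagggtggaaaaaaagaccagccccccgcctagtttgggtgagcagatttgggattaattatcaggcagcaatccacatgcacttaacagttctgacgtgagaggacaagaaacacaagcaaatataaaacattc

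DCT promoter of the inner start, chr13:94479633-94479932, minus strand: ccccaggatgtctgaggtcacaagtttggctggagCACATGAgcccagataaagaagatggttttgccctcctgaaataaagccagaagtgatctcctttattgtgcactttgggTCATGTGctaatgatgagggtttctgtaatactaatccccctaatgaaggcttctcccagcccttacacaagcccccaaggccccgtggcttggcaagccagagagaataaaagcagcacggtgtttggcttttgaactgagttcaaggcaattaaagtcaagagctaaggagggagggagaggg

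SLC24A5 promoter, chr15:48120740-48121039, plus strand: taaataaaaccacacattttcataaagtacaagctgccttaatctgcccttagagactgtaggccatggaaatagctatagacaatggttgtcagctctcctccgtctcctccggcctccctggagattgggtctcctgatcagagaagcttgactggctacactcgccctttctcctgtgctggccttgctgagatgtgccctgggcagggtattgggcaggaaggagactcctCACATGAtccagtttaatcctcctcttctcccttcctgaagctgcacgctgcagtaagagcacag

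MLANA promoter, chr9:5890639-5890938, plus strand: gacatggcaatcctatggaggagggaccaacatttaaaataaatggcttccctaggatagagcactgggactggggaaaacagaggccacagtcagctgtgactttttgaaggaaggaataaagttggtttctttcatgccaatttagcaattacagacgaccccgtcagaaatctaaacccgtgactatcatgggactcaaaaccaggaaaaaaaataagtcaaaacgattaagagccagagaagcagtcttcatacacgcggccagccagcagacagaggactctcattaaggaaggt

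Promoters were on file for 7 of the 10 genes, with 12 starts in all, and those of PMEL, SLC45A2 and RAB38 were not used here. TCATGTG, searched on both strands, began 105 bases before the start of TYR and 145 before that of TYRP1. At the inner DCT start it began at 135 bases, and again on the other strand at 215, and at SLC24A5 it lay on the other strand at 15. That made 4 of 12 member promoters, against 512 of 22132 promoters (2.31%) in the table. Of the 12, 5 are starts of RAB27A and 2 of DCT. TCATGTG is already known near starts of such genes, as said above, so its share here is no test. The E-box CACGTG was in 0 of the 12, against 8.34% of all promoters. The SOX words ACAATG and ACAAAG were in 2 and 1 of the 12, against 8.16% and 13.6%. The AP-1 word TGANTCA was in 2, both at RAB27A, against 6.15%. The HOXD13 words CAATAAA and TCGTAAA were in 2 and 0, against 2.91% and 0.542%. These are matches of letters in short windows and say nothing of binding.

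At the starts of these genes the 4 lines fell into pairs. An ATAC region lay within 1 kb of a start in 10 of 10 genes in 501mel (66.7% of all genes), 9 in SKMEL-5 (59.3%), 3 in SKMEL-147 (73.2%) and 4 in A375-GFP (74.3%). A K27ac region did so in 9 genes in 501mel (22.3%), 10 in SKMEL-5 (46.7%), 0 in SKMEL-147 (20.3%) and 2 in A375-GFP (53%). Where a region had to cover the start itself, or either gene end for PMEL, SLC45A2 and RAB38, the K27ac count was 4 in 501mel. Of these, the one at PMEL lay over its lower end and not its start. The count was 10 in SKMEL-5, 0 in SKMEL-147 and 1 in A375-GFP. The share of all genes is not given for this rule. K27ac was found at the starts of 0 members in all 4 lines (10.3% of all genes). Starts open in 501mel and SKMEL-5 and in neither SKMEL-147 nor A375-GFP numbered 6 (TYR, TYRP1, MLANA, OCA2, SLC45A2 and SLC24A5), a pattern found in 0.235% of all genes. Starts acetylated in that pattern numbered 7 (TYR, TYRP1, DCT, MLANA, SLC45A2, SLC24A5 and RAB38), against 1.03% of all genes. For RAB38 the absence in A375 rests on the A375-GFP list, since both shNTC replicates and shH3 had a K27ac region at that start. The reverse pattern was found at 0 members for ATAC (4.59% of all genes) and 0 for K27ac (1.72%). Among all genes an open start in 4 lines was usual (55.5%), and here it was found for RAB38 and RAB27A, 2 of 10. Regions at the SKMEL-5 open starts were weak: with −log10 q of at least 10 in each list, the pattern held for 2 starts, DCT and SLC24A5 (0.0701% of all genes), while for K27ac it held for 7 (0.951%). With the ATAC lists reduced to equal length it was 7 starts (0.711%), and for K27ac also 7 (2.45%).

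**Figure D1:**
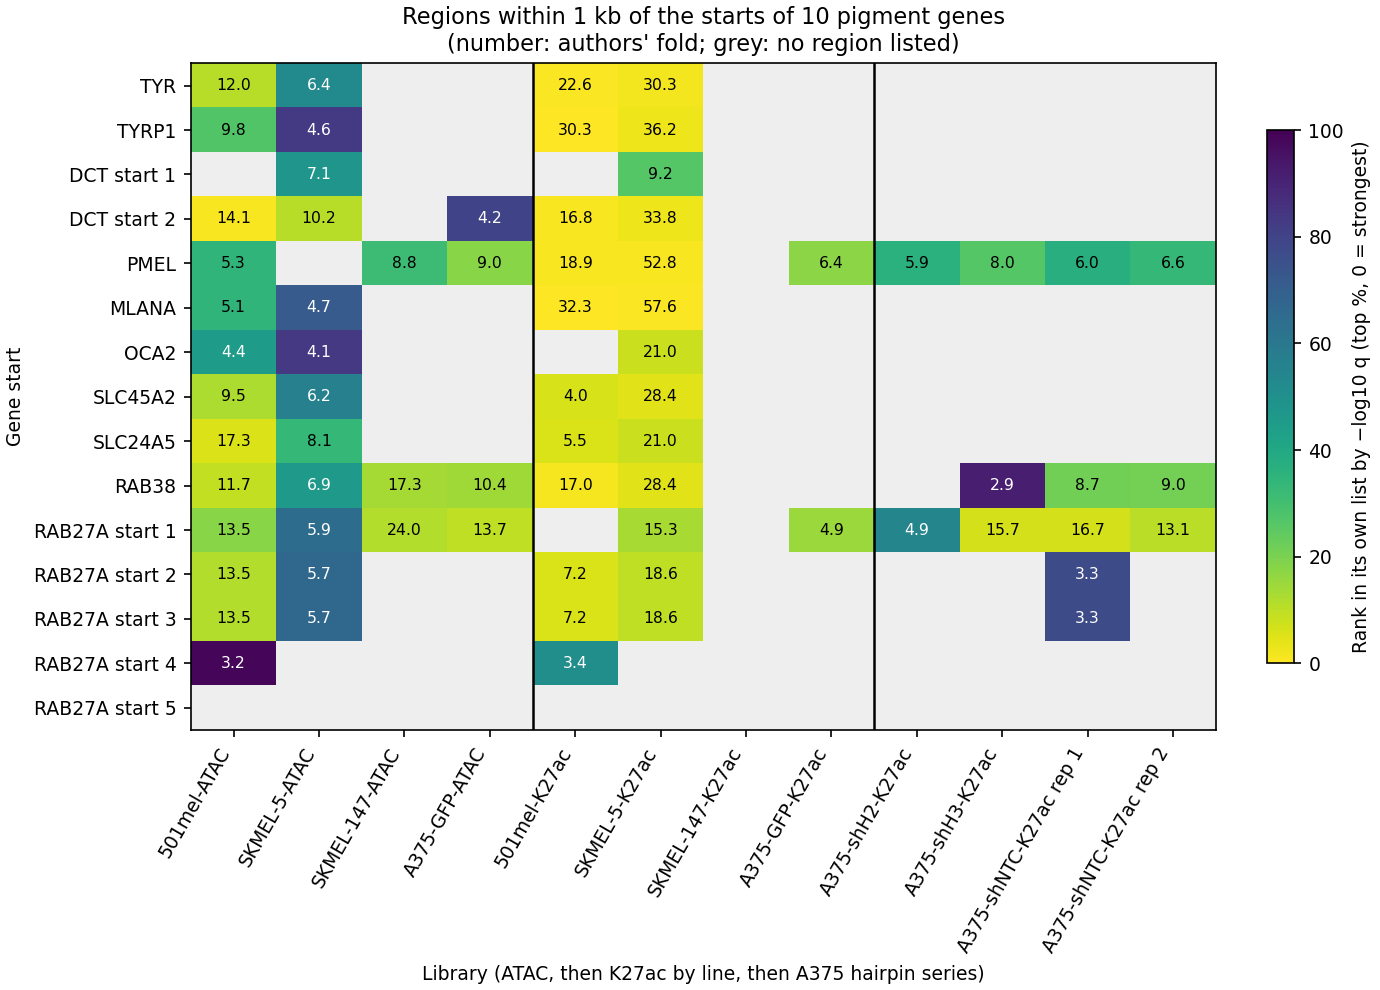
Deposited regions within 1 kb of gene starts (rows) in 12 libraries (columns), with the authors' fold as a number and the colour giving the region's rank in its own list (top %, low is strong). Grey marks no region. For genes with several starts, 1 is the outermost. K27ac fills the 501mel and SKMEL-5 columns for most genes, and in the A375 libraries it appears at PMEL, RAB38 and RAB27A alone.

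Within their own lists, K27ac regions within 1 kb of the starts of the enzymes, MLANA, PMEL and RAB38 ranked high. At MLANA the start region had a K27ac fold of 32.3 in 501mel and 57.6 in SKMEL-5, in the top 0.0823% and 0.598% of those lists by −log10 q. At TYRP1 the folds were 30.3 in 501mel and 36.2 in SKMEL-5, in the top 0.138% and 2.59%. At TYR they were 22.6 and 30.3, in the top 0.539% and 1.93%. The enzymes and MLANA thus all stood in the upper few percent of both lists. DCT has 2 starts in the RefSeq table. The inner had folds of 16.8 in 501mel and 33.8 in SKMEL-5, and was open in A375-GFP too, with an ATAC fold of 4.15. The outer, at chr13:94549406, was open and acetylated in SKMEL-5 alone, with a K27ac fold of 9.17. PMEL, taken at its upper end, had 18.9 in 501mel and 52.8 in SKMEL-5. RAB38 had 17.0 in 501mel and 28.4 in SKMEL-5. In 501mel the regions given here for DCT, PMEL and RAB38 lay within 1 kb of the position and did not cover it.

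Within the 501mel list the 3 transporters had lower K27ac folds at their starts than the enzymes, or none. SLC45A2 had a fold of 3.99 in 501mel and 28.4 in SKMEL-5, and SLC24A5 had 5.54 and 21.0. OCA2 had no K27ac region at its start in 501mel and one of 21.0 in SKMEL-5. Their open starts were not all weak in 501mel: SLC24A5 had an ATAC fold of 17.3, in the top 5.28% of that list, SLC45A2 one of 9.52 in the top 12.4%, and OCA2 one of 4.44 in the top 45.1%.

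PMEL and RAB27A were the members with acetylated starts in A375-GFP, and both share that stretch with another gene. The upper end of PMEL lies 121 bp from the lower end of CDK2, a cell cycle kinase gene, and the outermost RAB27A start lies 99 bp from PIGB, a gene for a GPI anchor enzyme. PIGBOS1 also has an end within 1 kb of a RAB27A start. Signal of the genes at each of these places cannot be told apart. RAB27A has 5 starts in the table. The outermost was open in all 4 lines. The pair at chr15:55270399 and chr15:55270922 was open and acetylated in 501mel and SKMEL-5 and not in SKMEL-147 or A375-GFP. K27ac folds at the pair were 7.20 in 501mel and 18.6 in SKMEL-5. In A375-shNTC replicate 1 a K27ac region covered both starts of the pair, with a fold of 3.34, and replicate 2 had none there. At the outermost start K27ac was listed in SKMEL-5 (15.3) and A375-GFP (4.86), and not in 501mel or SKMEL-147.

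Away from the starts, every member had at least 1 ATAC and 1 K27ac region in its window in each of the 4 lines. This is common among all genes, for ATAC in 97.5% in 501mel, 95.7% in SKMEL-5, 99% in SKMEL-147 and 98.3% in A375-GFP. For K27ac the shares of all genes were 67%, 81.2%, 72% and 84.5% in that order. The amount acetylated separated the lines. The number of K27ac regions in the window was higher in both 501mel and SKMEL-5 than in both SKMEL-147 and A375-GFP for 6 members (TYR, TYRP1, DCT, MLANA, SLC24A5 and RAB38), a pattern of 3.64% of all genes. The number of ATAC regions was so for 0 members (0.646%). K27ac regions covered 11.6% of the members' windows in 501mel, against 2.17% of the windows of all genes, and 10.3% in SKMEL-5, against 2.30%. In SKMEL-147 they covered 1.65%, against 2.21%, and in A375-GFP 2.44%, against 5.02%. In base pairs this was 256 kb in 501mel, 228 kb in SKMEL-5, 36.4 kb in SKMEL-147 and 53.9 kb in A375-GFP.

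The share of the window covered varied widely among members. TYRP1 had the largest share in SKMEL-5, 37.3%, with 21.5% in 501mel. SKMEL-147 had 2.43% and A375-GFP 0.601%. TYR had 21.6% in 501mel, 13.6% in SKMEL-5, 2.69% in SKMEL-147 and 1.29% in A375-GFP. RAB38, whose gene is long, had 56 K27ac regions and 18.8% of its window covered in 501mel, and 15 regions and 6.70% in SKMEL-5. In all of these 3 genes both 501mel and SKMEL-5 lay above both SKMEL-147 and A375-GFP. OCA2, also long, was the least covered in 501mel, with 1.45% from 6 regions, none of them in the gene, and had 4.99% from 20 regions in SKMEL-5. PMEL stood apart from the rest, with 20.5% in 501mel, 19.6% in SKMEL-5, 2.24% in SKMEL-147 and 17.5% in A375-GFP. Its window is dense with other genes.

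**Figure D2:**
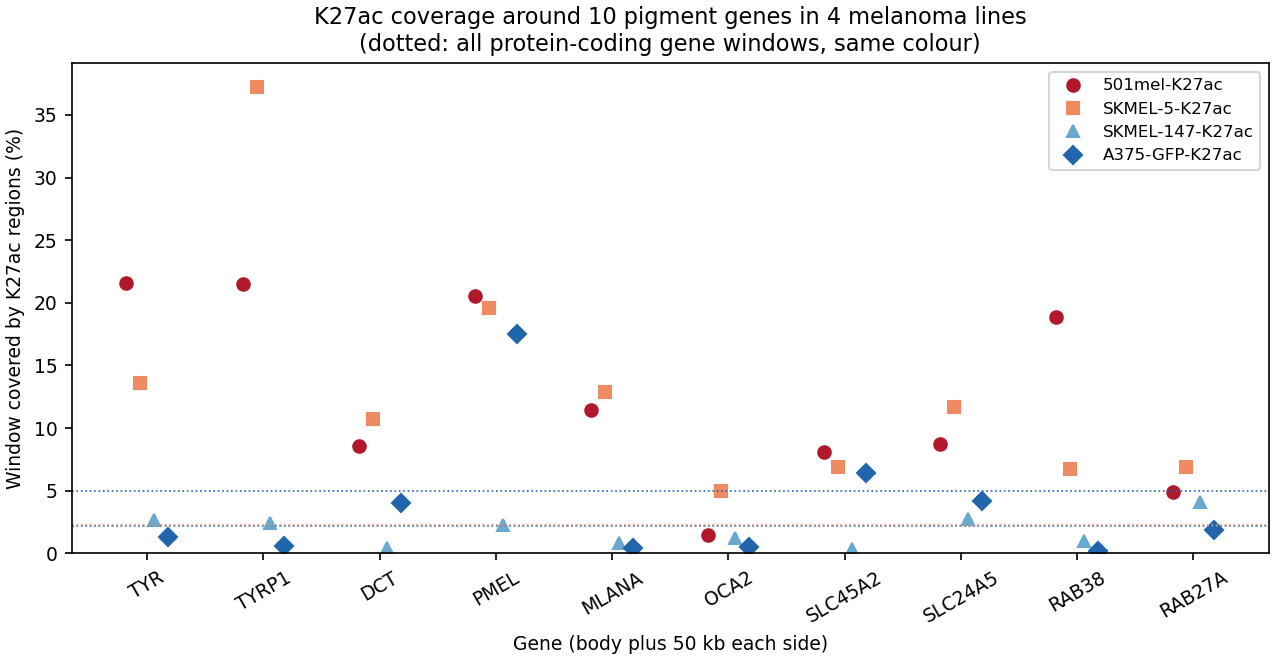
Share of each member's window, the gene body plus 50 kb on each side, that K27ac regions cover (%), by line. Dotted lines give the same share over all protein-coding gene windows (2.17% in 501mel, 2.30% in SKMEL-5, 2.21% in SKMEL-147, 5.02% in A375-GFP). The SKMEL-147 and A375-GFP points lie low, with PMEL (17.5%) and SLC45A2 (6.42%) the highest in A375-GFP.

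Some acetylated domains were long. That over MLANA ran for 12.0 kb in 501mel, in the top 0.0465% of its list by width, and for 11.4 kb in SKMEL-5. Its midpoint in both lines also lay inside the gene BRD10, and signal of MLANA and BRD10 there cannot be told apart. The domain over TYR spanned 7.90 kb in 501mel and 15.2 kb in SKMEL-5, the top 0.0475% of the SKMEL-5 list by width. Over PMEL it ran for 14.4 kb in SKMEL-5 and reached through CDK2. Of the open regions near the members in 501mel, 44.7% (67 of 150, Wilson 95% interval 36.9 to 52.7%) overlapped K27ac of the same line, against 18.5% over the whole list. In SKMEL-5 the share was 70.9% (56 of 79, 60.1 to 79.7%), against 41.3%. In SKMEL-147 it was 18.9% (23 of 122, 12.9 to 26.7%), against 19.1%, and in A375-GFP 28.3% (28 of 99, 20.4 to 37.8%), against 37.3%. The intervals cover counting error only.

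The strongest K27ac region in a window often lay at another gene. It lay in the member or within 1 kb of its ends for 6 genes in 501mel, 6 in SKMEL-5, 3 in SKMEL-147 and 3 in A375-GFP. Another 4 of those in A375-GFP lay at other genes only, at TGDS near DCT, at DGKA and PYM1 near PMEL, at AMACR near SLC45A2, and at RSL24D1 near RAB27A. The region at AMACR, an enzyme of fatty acid breakdown, had a fold of 23.9 in A375-GFP, in the top 0.614% of the list. Within the bodies of the 10 genes there were 123 of 197 K27ac regions in 501mel, 68 of 118 in SKMEL-5, 18 of 50 in SKMEL-147 and 11 of 77 in A375-GFP.

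The TYR locus held both kinds of site. Its start was open in 501mel, with an ATAC fold of 12.0, and in SKMEL-5, with 6.41. No region lay within 1 kb of it in SKMEL-147 or A375-GFP. An element centred 1.88 kb upstream, chr11:89175739-89176243, was open in all 4 lines. Its folds were 6.87 in 501mel, 6.70 in SKMEL-5, 4.14 in SKMEL-147 and 4.02 in A375-GFP. K27ac overlapped that element in 501mel, SKMEL-5 and both shNTC replicates, and not in SKMEL-147 or A375-GFP. Another element, of 1.04 kb and centred 9.28 kb upstream, chr11:89168071-89169111, was also open in all 4 lines. Its folds were 19.0 in 501mel, 14.5 in SKMEL-5, 25.6 in SKMEL-147 and 15.8 in A375-GFP. K27ac covered it in all 4 as well, with folds of 25.4 in 501mel, 42.4 in SKMEL-5, 8.74 in SKMEL-147 and 5.91 in A375-GFP. The farther element was thus open and acetylated also in the lines with no region at the TYR start. CTCF was listed there in both 501mel and SKMEL-5.

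**Figure D3:**
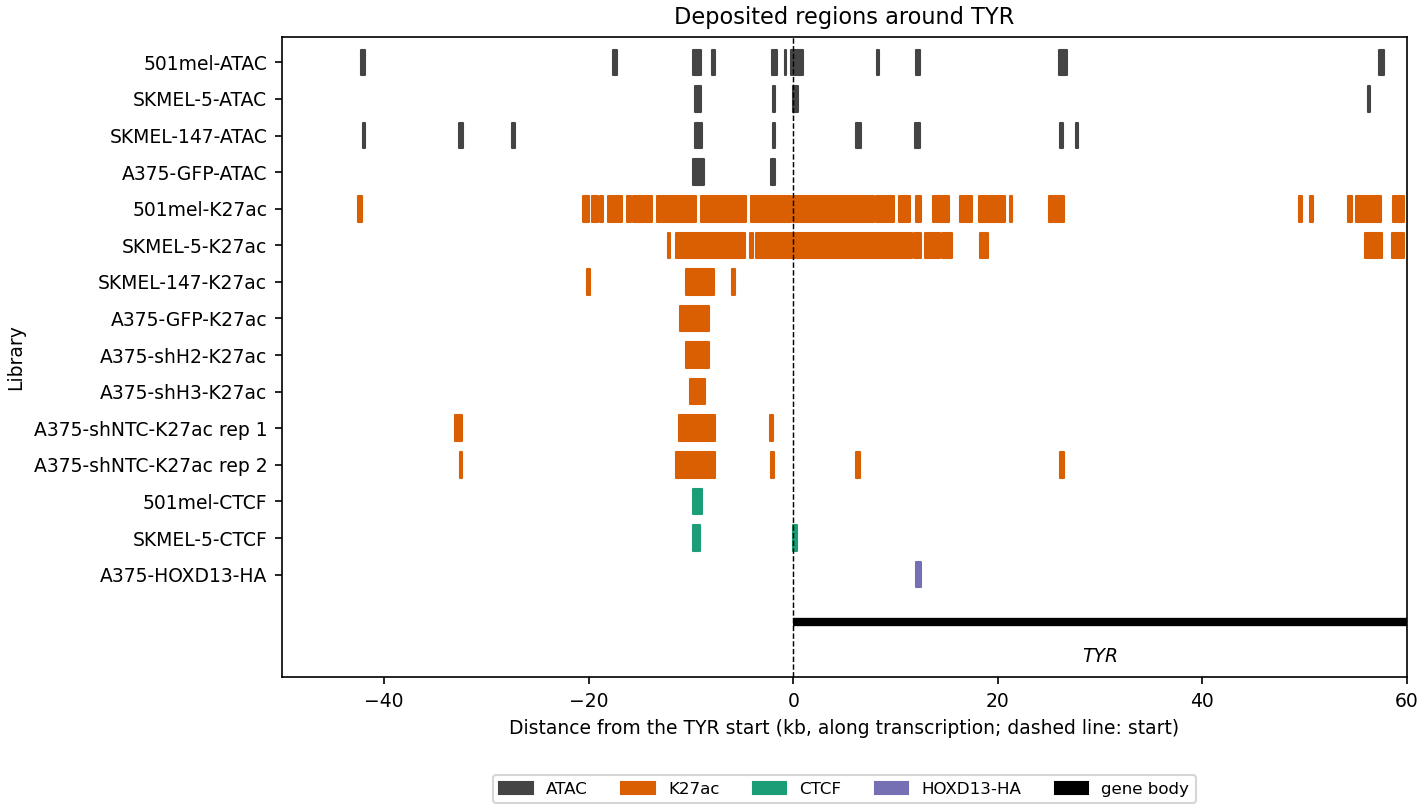
Deposited regions of the 15 libraries (rows) from 50 kb before to 60 kb after the TYR start, in kb along transcription, coloured by assay, with the gene body in black. The upstream site at 9.28 kb is marked in all 12 ATAC and K27ac libraries, and the start is marked by ATAC and K27ac in 501mel and SKMEL-5.

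Merging the open regions of the 4 lines gave 241 elements near the members, from 16 at MLANA to 42 at OCA2, and 228532 genome-wide. Elements open in 501mel and SKMEL-5 alone were 16 of 241 (6.64%, Wilson 95% interval 4.13 to 10.5%), against 1.46% genome-wide. Of these 16, K27ac covered 11 in 501mel, 13 in SKMEL-5, 0 in SKMEL-147 and 0 in A375-GFP. Elements open in SKMEL-147 and A375-GFP alone were 22 (9.13%, 6.11 to 13.4%), against 13.1%, and those open in all 4 lines 26 (10.8%, 7.47 to 15.3%), against 14.7%. Of the 26 open in all lines, 4 were acetylated in all lines, and 19 held CTCF in 501mel and 20 in SKMEL-5. The 4 were the TYR element 9.28 kb upstream, one at the lower end of DGKA near PMEL, one 25.4 kb beyond the lower end of RAB38 and one inside RAB27A.

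Several of the 16 lay far from a start. At TYRP1 an element 18.2 kb upstream, chr9:12674758-12675607, had ATAC folds of 17.2 in 501mel and 6.65 in SKMEL-5 and K27ac folds of 16.6 and 40.2. In DCT an element inside the longer transcript, chr13:94516076-94516820, had ATAC folds of 13.9 and 6.86 and K27ac folds of 8.71 and 29.3. Next to OCA2 an element 21.0 kb upstream, chr15:28119980-28120685, lies inside the neighbouring gene HERC2, known as the site of control elements of OCA2. It had ATAC folds of 8.55 in 501mel and 9.21 in SKMEL-5 and a K27ac fold of 48.5 in SKMEL-5. In 501mel a K27ac region with a fold of 5.71 began just past the element without overlapping it. CTCF overlapped it in both lines. OCA2 also held the reverse pattern: an element inside the gene, chr15:27843886-27844833, was open in SKMEL-147 and A375-GFP alone, and acetylated there with folds of 6.99 in SKMEL-147 and 2.42 in A375-GFP, with a K27ac region in SKMEL-5 as well.

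In A375 the hairpin libraries were set against shNTC. A K27ac region lay in the window of 9 members in shH2 (79.9% of all genes), all but RAB38, and of 10 in shH3 (85.2%), against 10 and 10 in the shNTC replicates (88.9% and 88.7%). Within 1 kb of a start, K27ac was listed for 2 members in shH2 (40.7% of all genes) and 3 in shH3 (51.9%), against 3 and 3 in the shNTC replicates (58.3% and 56.9%). The start of RAB38 had no region in shH2 and was listed in shH3 with a fold of 2.87, and in the shNTC replicates with 8.72 and 8.95. The outermost RAB27A start was listed in all 4, with 4.89 in shH2, 15.7 in shH3, and 16.7 and 13.1 in shNTC. So was the PMEL upper end, with 5.86 in shH2, 8.03 in shH3, and 5.96 and 6.58 in shNTC. Of the 3 starts acetylated in both shNTC replicates (56% of all genes), 0 were missing from both hairpins, a pattern of 5.19% of all genes. TYR, TYRP1, DCT, MLANA, OCA2, SLC45A2 and SLC24A5 had no K27ac region at a start in any of these 4 libraries.

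Over the whole windows, 55 regions were shared by the 2 shNTC replicates, and 19 of them (34.5%, Wilson 95% interval 23.4 to 47.7%) were listed in neither hairpin. Genome-wide the count was 24220 of 65337 regions, 37.1%, which lies inside that interval. Without shNTC replicate 1, 34 regions of replicate 2, which had 72 near the members, were in neither hairpin. Without replicate 2, it was 29 of replicate 1, which had 67. The genome-wide share is not given for a single replicate. Regions missing from shH2 were 28 of the 55 (50.9%), against 52.2% genome-wide, and from shH3 22 (40%), against 42.7%. At least 1 region listed in neither hairpin was found near 6 members, a call made for 70.7% of all genes. Of 27 regions shared by both hairpins, 0 were absent from both shNTC replicates (upper Wilson limit 12.5%), against 577 of 31235 (1.85%) genome-wide, and correspondingly 0 members had such a region, against 2.99% of all genes. With 2 libraries on each side, an exact permutation test over libraries could give no p below 0.333, so none was made. The shNTC lists were longer, with 85977 and 80242 regions, than those of shH2 with 43634 and shH3 with 51838. With the 4 lists reduced to the length of shH2, the count was 8 of 35 (22.9%, 12.1 to 39.0%), against 16.4% genome-wide.

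The regions missing from both hairpins were weak ones. By the lower −log10 q of the 2 shNTC replicates, the 19 had a median of 3.06, from 1.57 to 7.47. The 24 listed in both hairpins had a median of 18.4, from 2.97 to 90.0, and the 9 in shH3 only and 3 in shH2 only had medians of 8.87 and 13.2. Over the genome the regions in neither hairpin were also the weaker ones, with a median of 3.69, and those in both had one of 20.0. Open chromatin of A375-GFP overlapped 8 of the 19 (42.1%), against 42.5% of such regions genome-wide, and all 36 of the others, against 91.7%. By gene, they made up 4 of 6 regions at TYR, 1 of 3 at TYRP1, 9 of 19 at PMEL, 2 of 3 at SLC24A5, 1 of 3 at RAB38 and 2 of 8 at RAB27A, and 0 at DCT, MLANA, OCA2 and SLC45A2. The TYR element 9.28 kb upstream was listed in all 4, with folds of 11.0 in shH2, 8.33 in shH3, and 28.9 and 24.9 in shNTC. A region 29.5 kb past the TYRP1 start was listed in shH2 with a fold of 3.58, not in shH3, and in shNTC with 7.32 and 7.41.

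**Figure D4:**
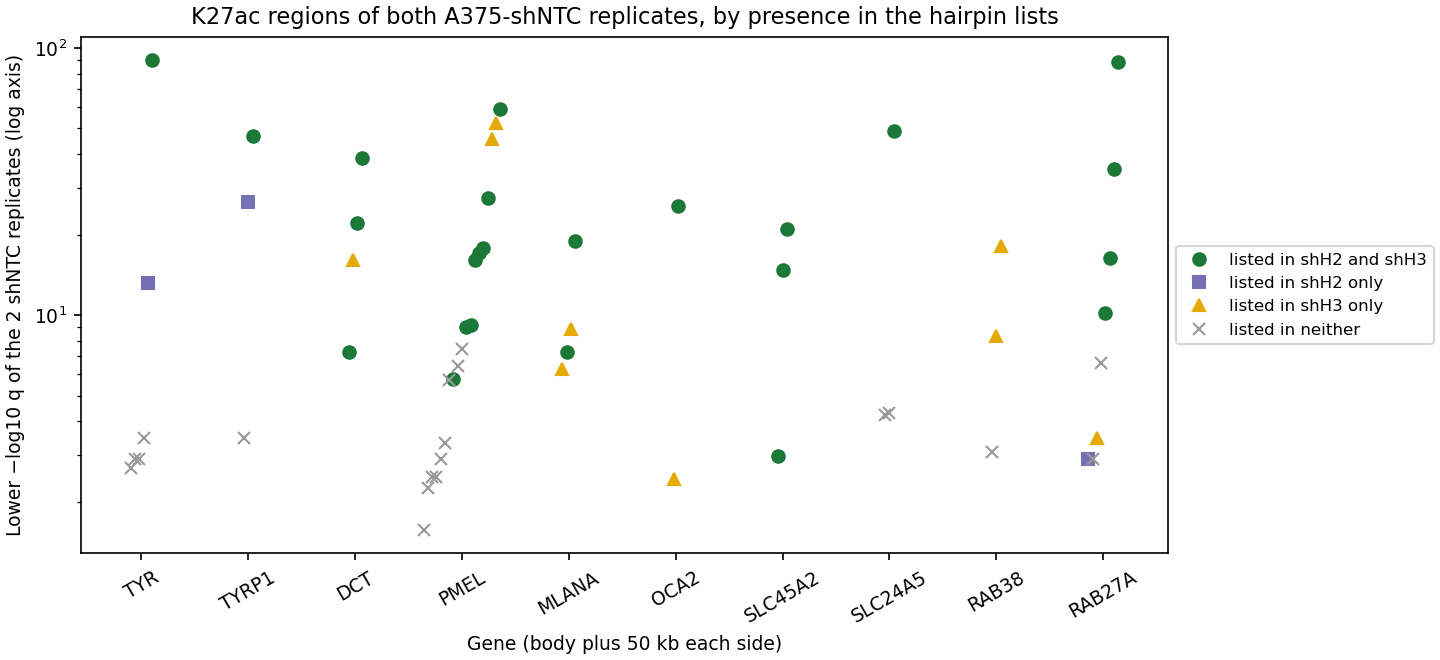
The 55 K27ac regions shared by both shNTC replicates, by member (horizontal axis) and by the lower −log10 q of the 2 replicates (vertical, log axis). Symbols show in which hairpin lists each was found, and the 19 found in neither reach no higher than 7.47.

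HOXD13-HA, profiled in A375, was listed at 28 places near the members, or 12.7 per Mb, against 10.9 per Mb over all gene windows. At least 1 region lay near 9 of the 10 genes, all but PMEL, against 60.2% of all genes, and 0 members had one within 1 kb of a start, against 4.32%. TYRP1 had 9 of the 28, OCA2 5, RAB38 4, RAB27A 3, DCT and SLC24A5 2 each, and TYR, MLANA and SLC45A2 1 each. Most were weak: the best of each member had a median rank in the top 42.1% of the list. With −log10 q of at least 10 there were 3 regions, near 2 members, TYRP1 and RAB38. In the whole list a −log10 q of 9.85 ranked in the top 24.1% and one of 12.2 in the top 17.6%. The share of all genes is not given for this cut.

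Most of the TYRP1 sites lay past the gene. The strongest, chr9:12722035-12722836, was 29.1 kb past the start, with a fold of 5.29 in the top 5.80% of the list. It overlapped open chromatin of A375-GFP and K27ac of both shNTC replicates, in the region that was listed in shH2 and not in shH3. Another, chr9:12748084-12748562, lay 54.9 kb past the start, under K27ac listed in all 4 libraries, with folds of 4.91 in shH2, 3.32 in shH3, and 16.6 and 11.2 in shNTC. At RAB38 the strongest, chr11:88115362-88115557, lay inside the gene with a fold of 5.95, outside A375-GFP open and acetylated chromatin. A region in HERC2, chr15:28119974-28120226, overlapped the element near OCA2 that was open in 501mel and SKMEL-5 and not in A375-GFP, with a fold of 2.79, in the top 82.0% of the list.

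**Figure D5:**
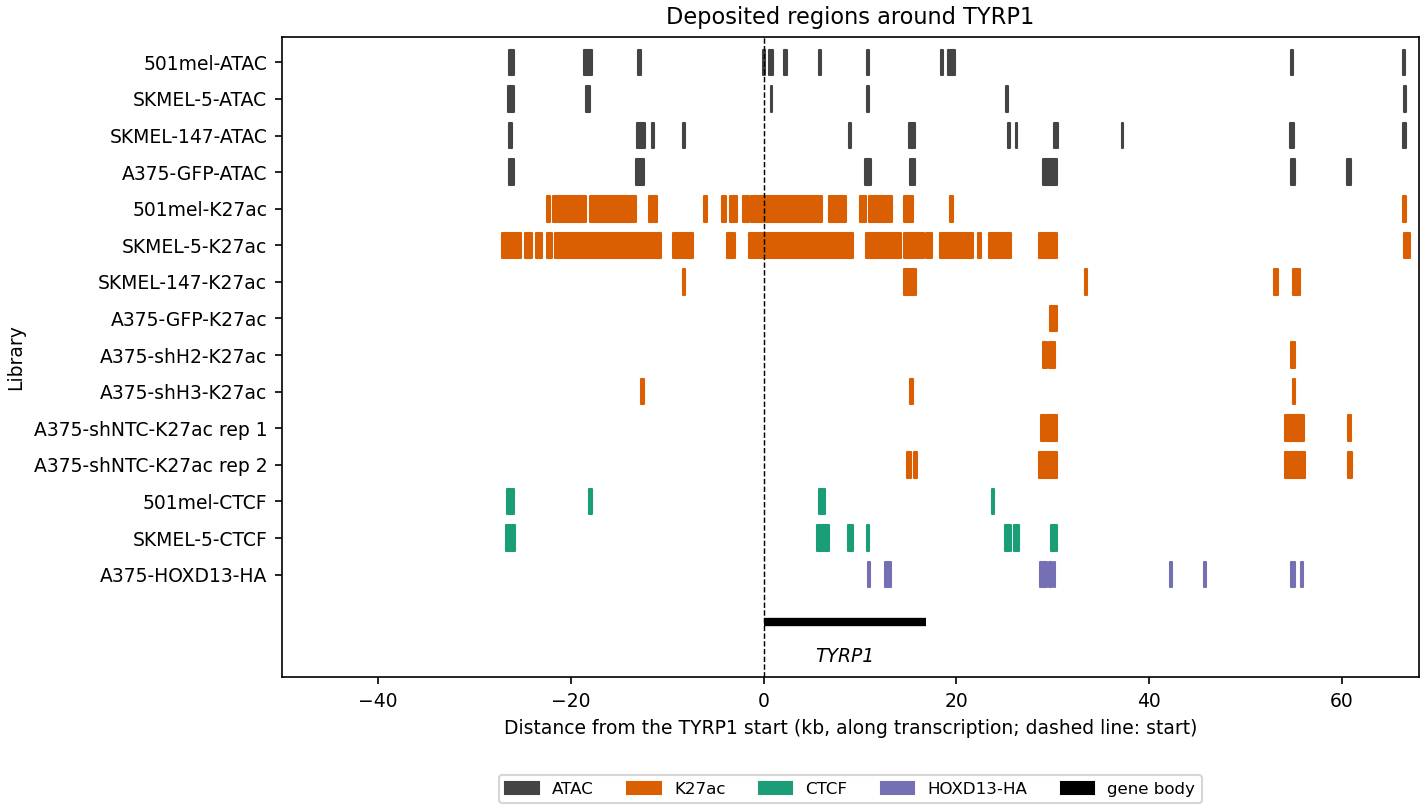
Deposited regions of the 15 libraries from 50 kb before to 68 kb after the TYRP1 start, in kb along transcription, coloured by assay, with the gene body in black. HOXD13-HA regions lie inside and past the gene, the strongest at 29.1 kb, and K27ac spans the start in 501mel and SKMEL-5.

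Of the 28 HOXD13-HA regions, 9 overlapped A375-GFP open chromatin (32.1%, Wilson 95% interval 17.9 to 50.7%), against 34.1% of the whole list. A375-GFP K27ac overlapped 2 (7.14%, 1.98 to 22.6%), against 22.2%, and neither overlapped 19 (67.9%, 49.3 to 82.1%), against 58.5%. Of the 55 shNTC regions, 3 held a HOXD13-HA region (5.45%, 1.87 to 14.9%), against 11.1%, and of the 19 missing from both hairpins, 0 did (upper limit 16.8%), against 5.78%. Each of the genome-wide shares lay within the interval around the members' share.

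CTCF was listed in every window in both lines, against 88.9% of all genes in 501mel and 93.5% in SKMEL-5. Within 1 kb of a start it was listed for 6 members in 501mel (33.5% of all genes) and 8 in SKMEL-5 (39.8%). Near the members 501mel had 48 regions, of which 39 (81.2%, 68.1 to 89.8%) were also in SKMEL-5, against 76.9% of the whole list. SKMEL-5 had 60, of which 38 (63.3%, 50.7 to 74.4%) were also in 501mel, against 58.3%. K27ac of the same line overlapped 31.2% of these CTCF regions in 501mel (19.9 to 45.3%), against 16.6%, and 66.7% in SKMEL-5 (54.1 to 77.3%), against 28.7%.

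By −log10 q, the strongest CTCF site near the members in both lines lay about 13.7 kb below the lower end of PMEL, inside DGKA. This site had a fold of 65.7 in 501mel, in the top 0.0760% of the list, and 52.2 in SKMEL-5. One inside RAB38, about 71.6 kb from the start, had 35.6 in 501mel and 60.8 in SKMEL-5. A site inside BRD10, 4.57 kb upstream of MLANA, had 34.0 in 501mel, and at 4.52 kb SKMEL-5 had 48.1. In HERC2, 24.3 kb above OCA2, the folds were 45.6 in 501mel and 45.8 in SKMEL-5. All 4 were thus occupied in both lines. At the OCA2 start CTCF had a fold of 24.0 in 501mel and 28.0 in SKMEL-5.

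The wider pathway was read from 40 other genes of pigment signalling, melanosome biogenesis and transport, all of which matched the gene table. Acetylated starts were found for 25 in 501mel (22.3% of all genes), 32 in SKMEL-5 (46.7%), 12 in SKMEL-147 (20.3%) and 25 in A375-GFP (53%). Open starts were found for 36 in 501mel (66.7%), 32 in SKMEL-5 (59.3%), 34 in SKMEL-147 (73.2%) and 36 in A375-GFP (74.3%). Starts acetylated in 501mel and SKMEL-5 and in neither of the others were 5 (1.03% of all genes): GPR143, a melanosomal receptor, MLPH, which links RAB27A to its motor, ATP7A, which supplies copper to tyrosinase, the channel TRPM1, and BLOC1S5, a melanosome sorting subunit. ATP7A and BLOC1S5 had K27ac at their starts in shH3 and both shNTC replicates, so their absence in A375 rests on the A375-GFP list. The reverse was found for 0 (1.72%), and 11 were acetylated in all 4 lines (10.3%). For open starts the pattern held for 1, TRPM1 (0.235%), and the reverse for 1, MYRIP (4.59%). The highest K27ac folds in 501mel windows of these genes were near CAPN3 (28.8), LYST (19.5) and BLOC1S2 (17.3). At the starts themselves the 501mel folds were 28.8 for CAPN3, 4.95 for LYST and 3.81 for BLOC1S2. A HOXD13-HA region lay near 22 of the 40, against 60.2% of all genes.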

How the data were processed

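Region lists of 15 libraries were deposited, with hg38 coordinates. Per the submitters' processing notes the tools were MACS2, Bowtie2, Trim Galore, deepTools and SAMtools, with no versions, settings or control libraries given. Per the file contents, each deposited region carries a score, a fold enrichment at its summit (a ratio computed by the authors), a −log10 p and a −log10 q, all from the authors' caller, and the lowest −log10 q was near 1.30 in each list. Regions outside the autosomes and the X chromosome (0 to 3266 a list) were left out here, among them those on alternative copies of sequence. Gene positions and starts were RefSeq (GRCh38). Starts were on file for 15812 of 19974 protein-coding genes, and for the other 4162, PMEL, SLC45A2 and RAB38 among them, both gene ends were used, because that table gives no strand. For these 3, the upper end is the start by general knowledge. Exons and introns were not told apart. An overlap of 1 bp or more made regions shared, and shares have Wilson 95% intervals. Read counts were not used here, so depth is unknown. With 1 library a group (2 for shNTC) no test was made, and whether the 2 shNTC samples came from separate cultures is not stated. The interval code was tested on simulated data. The genes, lists and motifs were chosen with earlier results of these data known. All 10 members are named with their starts, some with their regions of highest −log10 q, and other regions named were chosen after their values were seen. Python 3.11.15, pandas 2.3.3, NumPy 2.4.6, SciPy 1.17.1 and matplotlib 3.10.9 were used. Alternatives were other windows, start distances, a −log10 q of at least 10, lists of equal length, other overlaps and each shNTC replicate left out.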

Additional observations from a re-analysis of the deposited data

How the results depend on the processing

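Of 119 values of 21 results under the alternatives, 99 stayed within 1.5 times the value reported and 20 did not. With −log10 q of at least 10, members with a K27ac region in SKMEL-147 were 5, open starts in SKMEL-5 were 2, HOXD13-HA regions were 3 near 2 members, CTCF regions shared by 501mel and SKMEL-5 were 25, and shNTC regions listed in neither hairpin were 11. With direct overlap of a start or gene end, acetylated members were 4 in 501mel and 1 in A375-GFP. Within 2 kb of a start, SKMEL-147 had 2 acetylated and 5 open starts. For the counts of members and starts in this paragraph, the share of all genes under the same rule is not given. They are thus not read as particular to these genes. With windows of 10 kb, shNTC regions listed in neither hairpin were 4, HOXD13-HA regions 13 and shared CTCF regions 25, and with 100 kb the regions listed in neither hairpin were 29. Those were 8 with lists of equal length and 38 when at least 50% of a region had to be covered. Leaving out 1 shNTC replicate at a time gave 29 to 34, counted in the list of the replicate kept. Regions gained against shNTC were 2 in shH2 alone and 2 in shH3 alone. For these values the cause was not tested, beyond fewer or more regions being counted by construction. No paired analysis was possible because the hairpin libraries carry no replicate numbers and no test was made. Depth is unknown, so a region missing from a list was not detected there.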

Other observations

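Elements open in a single line were 126 of 241 near the members (52.3%, Wilson 95% interval 46.0 to 58.5%), against 51.9% genome-wide. Those open in 501mel alone were 60 of 241 elements (24.9%, 19.9 to 30.7%), against 11.7% genome-wide, and 32 of the 60 were acetylated in 501mel and 26 in SKMEL-5. Those open in SKMEL-147 alone were 44 (18.3%, 13.9 to 23.6%), against 28.1%, with 7 acetylated in SKMEL-147. Elements open in A375-GFP alone were 14 (5.81%, 3.49 to 9.51%), against 10.4%, and in SKMEL-5 alone 8 (3.32%, 1.69 to 6.41%), against 1.67%.

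In 501mel and SKMEL-5 the strongest K27ac region near RAB38 was not at the start. It lay 25.5 kb inside the gene in 501mel, with a fold of 32.0 in the top 0.0930% of the list, and 23.3 kb inside in SKMEL-5, with a fold of 50.2 in the top 0.981%. A375-GFP had a short region of 0.425 kb inside that of SKMEL-5, with a fold of 4.06 in the top 45.3% of its list. In shH3 the strongest lay beyond the lower end of the gene, with a fold of 4.51, in the shNTC replicates it was at the start, and shH2 had none in the window.

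The strongest A375-GFP K27ac region near SLC24A5, chr15:48109606-48111159, lay 10.6 kb upstream of the start, outside protein-coding genes, with a fold of 16.4 in the top 0.406% of the list. The SLC24A5 start itself had no ATAC or K27ac region in A375-GFP. In 501mel the strongest K27ac region of that window was 12.5 kb upstream, at chr15:48107599-48109335, with a fold of 7.10 in the top 3.44%. Near RAB27A the strongest open region of 501mel, SKMEL-147 and A375-GFP lay at the end of RSL24D1, with an ATAC fold of 19.6 in the first line, 25.5 in SKMEL-147 and 14.5 in A375-GFP.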
